A study of Mus musculus with 10 samples.

Results

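The 10 genes described here encode interleukin-1 (IL-1) and interleukin-18 (IL-18) cytokines, their receptors and antagonists, and proteins that process them. They are Il1a, Il1b, Il1rn, Il1r1, Il1r2, Il1rap, Il18, Il18bp, Casp1 and Nlrp3. They were found by their symbols among the 55421 genes of the count table, and all 10 were present. RNA was sequenced from 10 libraries of myeloid cells of mice bearing MC17-51 fibrosarcoma, a transplanted mouse tumor line, at day 15 after implantation. Polymorphonuclear myeloid-derived suppressor cells (MDSC, GR1hi Ly6G+ Ly6C-) were isolated from spleens with magnetic beads, and tumor-associated macrophages (TAM, CD45+ CD11b+ F4/80+ Ly6G- live cells) were sorted from the tumors of those animals. In every mouse Ptpn11, the gene of the tyrosine phosphatase SHP-2, was floxed. The Shp2f/f mice served as controls. Shp2f/fLysMcre mice also expressed Cre from the lysozyme M (Lyz2) promoter, which is active in macrophages and granulocytes, so deletion is not limited to the sorted cells. MDSC had 2 libraries per genotype and TAM had 3. Mice were 8 to 12 weeks old at implantation. The sources used here do not state the background of the floxed line, whether a library pooled animals, or which libraries shared a mouse, so the p-values measure only the spread between these libraries.

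IL-1α (Il1a) and IL-1β (Il1b) both bind the signaling receptor IL-1R1 (Il1r1), which recruits the accessory protein IL-1RAP (Il1rap) and signals through MyD88. The receptor antagonist (Il1rn) occupies IL-1R1 without signaling, and IL-1R2 (Il1r2) is a decoy receptor that lacks a signaling domain. IL-18 (Il18) has its own receptor and a soluble inhibitor, IL-18 binding protein (Il18bp). IL-1β and IL-18 are made as inactive precursors. Inflammasomes, of which NLRP3 (Nlrp3) is the best known sensor, activate caspase-1 (Casp1), which cleaves both precursors. IL-1α is active without that cleavage. Macrophages and neutrophils are main sources of IL-1β, and transcription of Il1b and Nlrp3 is a regulated step that precedes inflammasome activation. Transcript levels do not show cleavage or release.

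The promoters of Il1a, Il1b and Nlrp3 are shown for the agonists and the sensor, which were higher both in TAM than in MDSC and in Shp2f/fLysMcre than in Shp2f/f TAM, as Il18bp also was. Each line gives the 250 bases before the RefSeq transcript start on GRCm38.p6, 5′ to 3′ on the strand of the gene. The Il1a stretch is chr2:129309973-129310222 (minus strand), the Il1b stretch chr2:129371140-129371389 (minus strand) and the Nlrp3 stretch chr11:59541319-59541568 (plus strand). Capitals mark matches, on either strand, to 6 short motifs.
Il1a: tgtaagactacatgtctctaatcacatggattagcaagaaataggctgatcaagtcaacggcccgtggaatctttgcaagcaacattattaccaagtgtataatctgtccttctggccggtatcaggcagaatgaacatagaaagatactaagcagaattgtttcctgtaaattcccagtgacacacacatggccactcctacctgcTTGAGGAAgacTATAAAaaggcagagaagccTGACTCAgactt
Il1b: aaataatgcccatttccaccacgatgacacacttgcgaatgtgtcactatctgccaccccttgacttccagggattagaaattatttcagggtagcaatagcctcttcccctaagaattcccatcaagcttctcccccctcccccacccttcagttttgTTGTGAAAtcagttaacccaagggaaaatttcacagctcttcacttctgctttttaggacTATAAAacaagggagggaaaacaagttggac
Nlrp3: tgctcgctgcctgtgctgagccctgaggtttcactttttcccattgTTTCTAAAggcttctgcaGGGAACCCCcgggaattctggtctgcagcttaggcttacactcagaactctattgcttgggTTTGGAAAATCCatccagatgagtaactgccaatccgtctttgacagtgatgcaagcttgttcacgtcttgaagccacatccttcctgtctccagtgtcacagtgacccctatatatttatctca

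The motifs searched were an ETS/PU.1 core (GAGGAA), C/EBP (TTNNGNAA), AP-1 (TGANTCA), NF-kB (GGNNTTNCC), an interferon-stimulated response element (GAAANNGAA) and a TATA box (TATAAA). In Il1a, the AP-1 match began 12 bases before the start, at -12, the TATA match at -32 and the ETS/PU.1 match at -41, inside the C/EBP match that began at -43. Il1b held TATA at -31 and C/EBP at -91. Nlrp3 held C/EBP matches at -204 and -125 and NF-kB matches at -186 and -122, of which the pair at -125 and -122 overlap. Of 32851 RefSeq promoters, cut to the same length, 23.3% held the ETS/PU.1 core, 36.8% C/EBP, 6.75% AP-1, 13.5% NF-kB, 7.13% the interferon element and 12.4% TATA. All 10 genes had an entry, and the entry nearest the annotated gene start was used. For Il1r2 it lay 12014 bases from that start, for Il18bp 458 and for Il18 127. TATA was found in 3 of the 10 (Il1a, Il1b and Il18), C/EBP in 5, the ETS/PU.1 core in 2, AP-1 in 2, NF-kB in 2 and the interferon element in 0. A match of letters is a description and not a binding site.

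Levels are given as CPM (counts scaled to library size) after TMM scaling of the libraries, whose total counts lay between 28844660 and 38222998. Ptpn11, the targeted gene, was at 123, 126 and 123 CPM in Shp2f/f TAM and at 50.2, 53.2 and 53.5 CPM in Shp2f/fLysMcre TAM. In MDSC it was at 113 and 99.5 CPM in Shp2f/f and at 95.3 and 78.7 CPM in Shp2f/fLysMcre, and this fall did not pass (log2 fold change -0.29, edgeR adjusted p = 0.361). Lyz2, the Cre locus, fell in both cell types (log2 fold changes -7.68 and -8.33). The loss of Lyz2 transcript and the presence of Cre cannot be told apart from the deletion of Ptpn11. Xist was at 1 count in both Shp2f/f MDSC libraries, at 4.84 to 18.4 CPM in Shp2f/f TAM and at 118 to 369 CPM in the 5 Shp2f/fLysMcre libraries. Ddx3y, a Y-linked gene, was at 0.474 and 0.475 times its Shp2f/f level in MDSC and TAM of Shp2f/fLysMcre. In those 5 libraries it was at 22.0 to 28.0 CPM in MDSC and at 38.1 to 44.4 CPM in TAM. Each of them thus held RNA of both sexes, so of more than 1 animal, and whether mice were pooled was not tested. The mix of sexes moved with genotype, and the 2 cannot be told apart. The authors state that males and females were equally represented in every experiment, but Xist and Ddx3y differed between these genotypes. In Shp2f/f MDSC, 9 neutrophil markers summed to 8818 to 9025 CPM, but 5 monocyte markers summed to 8150 to 8301 CPM and Ly6g was at 8.94 to 11.9 CPM, so these markers went against a pure Ly6G+ population. In TAM, 8 macrophage markers summed to 9779 to 15401 CPM and the 9 neutrophil markers to 268 to 426 CPM, with Ly6g at 0.0583 to 0.288 CPM. MDSC Shp2f/fLysMcre replicate 2 stood apart, with 508 CPM of 7 fibroblast or tumor cell markers against 6.75 to 24.7 CPM in the other MDSC libraries. Pancreatic islet transcripts (Ins1, Ins2, Iapp and Chgb, chosen after their values were seen) moved with genotype in TAM, with sums of 1278, 845 and 6663 CPM in Shp2f/f and 79.3, 6.24 and 6.02 CPM in Shp2f/fLysMcre. TAM Shp2f/fLysMcre replicate 3 held 51.6 CPM of 5 keratinocyte markers against 0.554 to 2.22 CPM in the other TAM libraries. MDSC Shp2f/fLysMcre replicate 2 held 31.5 CPM of the keratinocyte markers against 0.582 to 1.09 CPM in the other MDSC libraries.

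All 10 genes passed the filter on low counts in each comparison. Shp2f/fLysMcre TAM had higher Il1a, Il18bp, Il18, Nlrp3, Il1b and Casp1 and lower Il1r1 than Shp2f/f TAM. Genes counted as called had a Benjamini-Hochberg adjusted p under 0.05 in edgeR's quasi-likelihood F test over all genes tested. By that rule 7 of the 10 were called, beside 50.2% of all 14446 genes tested, so a high share was also seen at large. The 6 that were higher stood beside 23.9% of all genes called higher, and the 1 that was lower beside 26.3% called lower. In MDSC the decoy receptor gene Il1r2 was the 1 gene of the 10 that was called, and it was higher. There, 4.28% of 14806 genes were called, 3.76% higher and 0.520% lower. Values of the 2 genotypes did not overlap for 9 of the 10 genes in TAM and for 8 in MDSC, beside 58.2% and 49.2% of all genes. The median log2 fold change of the 10 was 0.19 in TAM and 0.28 in MDSC, beside -0.01 over all genes in each.

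**Figure D1:**
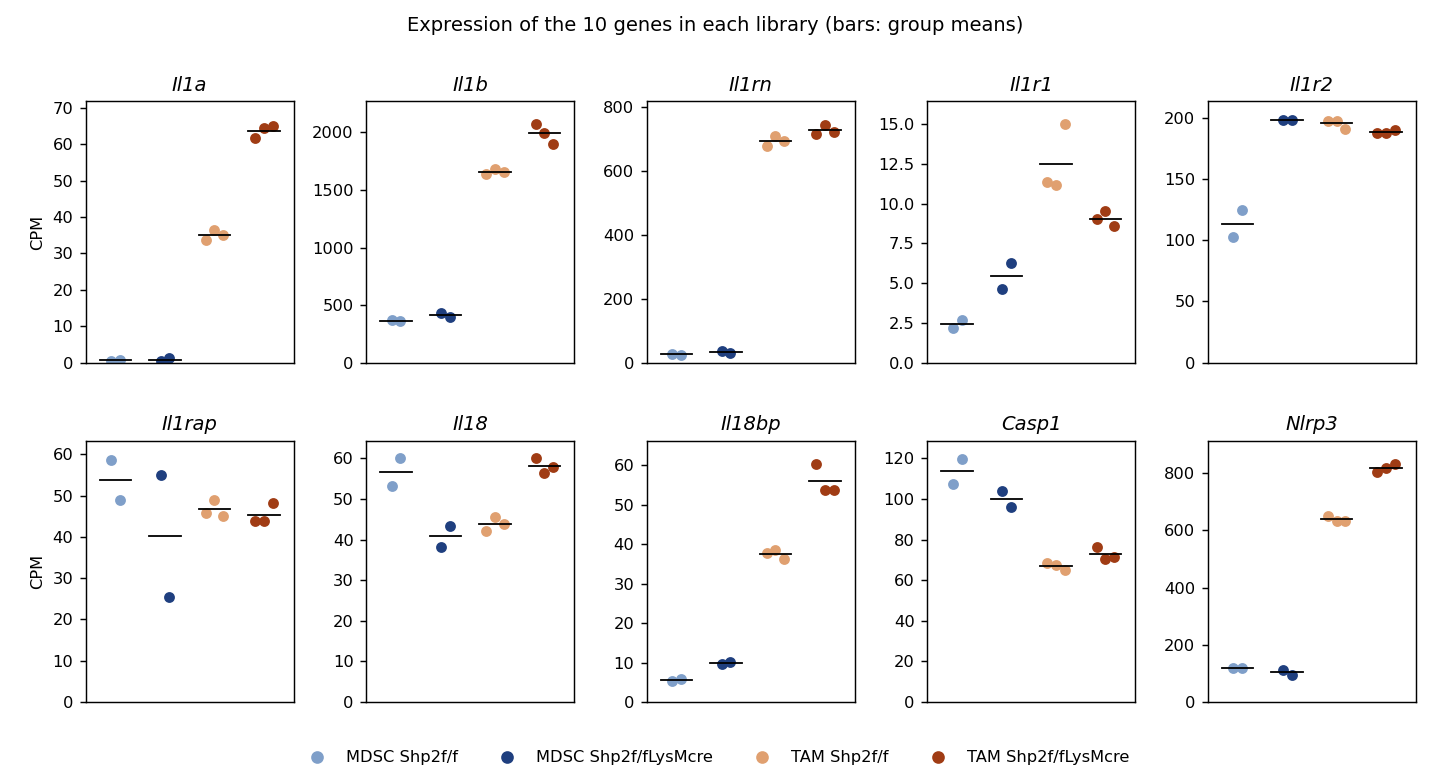
CPM of each of the 10 genes in each library (1 point per library, linear axis from 0) by cell type and genotype, with bars at the group means. In TAM the 3 Shp2f/fLysMcre points lie above the 3 Shp2f/f points for Il1a, Il1b, Il18, Il18bp, Casp1 and Nlrp3 and below them for Il1r1. In MDSC replicate 2 of Shp2f/fLysMcre lies apart for Il1rap.

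The agonist genes lie close to each other on chromosome 2. Il1a (ENSMUSG00000027399, GRCm38, 129299610 to 129309972, minus strand, 7 merged exons) was nearly silent in MDSC, at 0.495 and 0.636 CPM in Shp2f/f and 0.491 and 1.16 CPM in Shp2f/fLysMcre, which were 17 to 47 counts. In TAM it was at 33.8, 36.5 and 35.1 CPM in Shp2f/f and at 61.6, 64.6 and 65.2 CPM in Shp2f/fLysMcre. The TAM genotypes were far apart relative to their spread. The log2 fold change in TAM was 0.86 (SE 0.0464, 1.82-fold, edgeR adjusted p = 1.13e-07), the largest rise of the 10 there. In MDSC the difference was 0.55 (SE 0.501, edgeR adjusted p = 0.642) and became -0.21 without Shp2f/fLysMcre replicate 2, and 1.01 without replicate 1, so no direction can be given. In Shp2f/f, Il1a was 61.0-fold higher in TAM than in MDSC (log2 difference 5.93, SE 0.117, edgeR adjusted p = 1.13e-10). In these bulk samples, fewer expressing cells and less RNA per cell cannot be told apart.

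Il1b (ENSMUSG00000027398, chromosome 2, 129364570 to 129371139, minus strand, 6 merged exons) was abundant in both cell types. It was at 371 and 357 CPM in Shp2f/f MDSC, 428 and 398 CPM in Shp2f/fLysMcre MDSC, 1641, 1685 and 1655 CPM in Shp2f/f TAM, and 2076, 1996 and 1902 CPM in Shp2f/fLysMcre TAM. The 4 groups rose in that order with no overlap between neighbors. The rise with genotype in TAM was 1.20-fold (log2 fold change 0.26, SE 0.0352, edgeR adjusted p = 9.24e-05). The MDSC difference of 0.19 (SE 0.114) did not pass (edgeR adjusted p = 0.468). TAM held 4.51 times the MDSC level in Shp2f/f (log2 difference 2.17, SE 0.0483, edgeR adjusted p = 2.29e-10). Per kilobase of exon, Il1b was at 871 ± 11.6 CPM per kb in Shp2f/f TAM (SD, n = 3) and ranked 32 from the highest of 55240 genes with a known length. In Shp2f/fLysMcre TAM it ranked 26, and in MDSC 254 (Shp2f/f) and 199 (Shp2f/fLysMcre). The level of Il1a per kilobase in Shp2f/f TAM, 17.8 ± 0.702 CPM per kb (SD, n = 3), was far below it, at rank 2861.

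In the TAM libraries, markers of other cells also differed between genotypes. All 8 macrophage markers were higher, with sums of 9779 to 10109 CPM in Shp2f/f and 14537 to 15401 CPM in Shp2f/fLysMcre. Of 8 tested neutrophil markers, 4 were higher, with sums of 268 to 277 and 400 to 426 CPM. All 6 T cell markers (8.92 to 9.77 against 3.76 to 4.28 CPM) and all 5 NK cell markers (6.19 to 7.34 against 1.60 to 2.48 CPM) were lower. Of 4 tested dendritic cell markers 3 were lower (12.6 to 14.1 against 9.38 to 9.86 CPM for the sum of 6), and of 5 tested erythroid markers 3 were higher (4.99 to 6.78 against 7.69 to 11.97 CPM for the sum of 7). Monocyte markers were mixed, with 2 of 5 higher and 1 lower (sums of 2189 to 2255 against 2597 to 2610 CPM). Fibroblast or tumor cell markers were mixed too, with 1 of 7 higher and 2 lower (256 to 261 against 234 to 248 CPM). Among 3 tested B cell markers 1 was higher (4.12 to 4.58 against 10.1 to 11.3 CPM for the sum of 5). Ly6g, of the neutrophil list, was not tested in TAM, where it was at 0.0583 to 0.288 CPM. It was low beside S100a9 in both cell types, with means of 0.194 and 75.1 CPM in Shp2f/f TAM and 10.4 and 3219 CPM in Shp2f/f MDSC. The part of the marker differences between genotypes in the changes of the 10 genes was not tested.

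**Figure D2:**
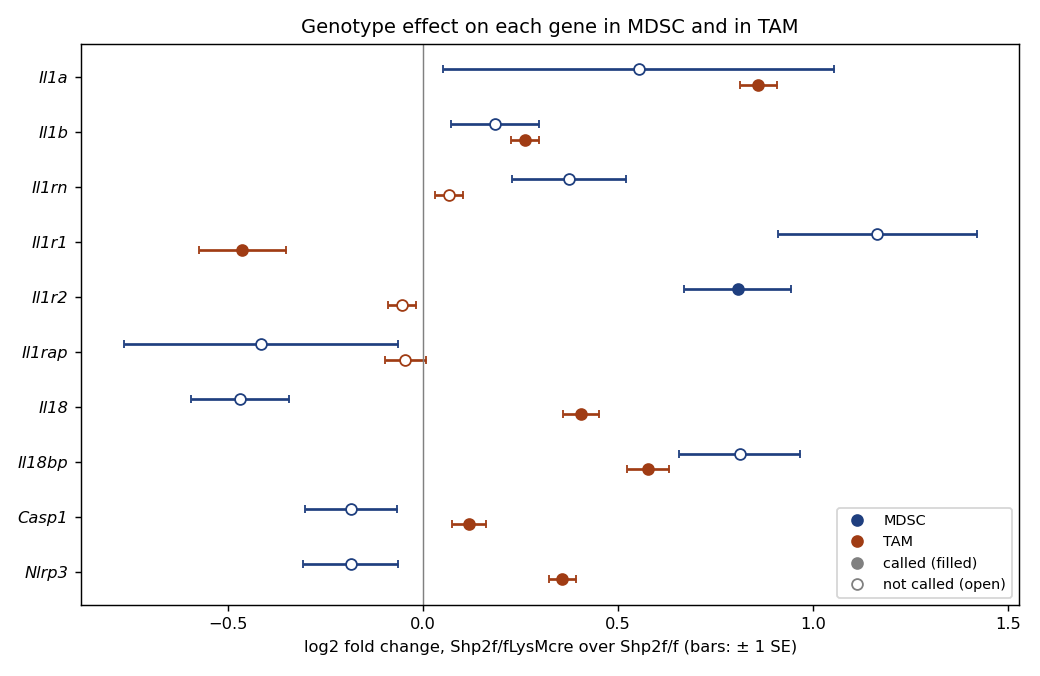
Log2 fold change of Shp2f/fLysMcre over Shp2f/f with its standard error for each of the 10 genes, in MDSC (blue, 2 against 2 libraries) and TAM (brown, 3 against 3). Filled points passed the test over all genes. The error bars are wider in MDSC, and the points of Il1r1, Il1r2, Il18, Casp1 and Nlrp3 lie on opposite sides of 0 in the 2 cell types.

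The antagonist gene Il1rn (ENSMUSG00000026981, chromosome 2, 24336853 to 24351494, plus strand, 6 merged exons) differed mainly by cell type. It was at 27.5 and 23.8 CPM in Shp2f/f MDSC, 36.3 and 30.1 CPM in Shp2f/fLysMcre MDSC, 680.0, 710 and 694 CPM in Shp2f/f TAM, and 717, 744 and 722 CPM in Shp2f/fLysMcre TAM. It was 26.8-fold higher in TAM than in MDSC of Shp2f/f (log2 difference 4.74, SE 0.0785, edgeR adjusted p = 4.33e-11). The genotypes did not overlap in either cell type, yet neither difference passed. In TAM it was 0.07 (SE 0.0352, edgeR adjusted p = 0.135), which became -0.03 with scaling by total counts. In MDSC it was 0.37 (SE 0.146, edgeR adjusted p = 0.248). Without Shp2f/fLysMcre replicate 1 the MDSC value was 0.21, and without replicate 2 it was 0.50, each with 1 library left in that genotype.

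The signaling receptor gene Il1r1 (ENSMUSG00000026072, chromosome 1, 40225080 to 40317257, plus strand, 15 merged exons) was low everywhere. It was at 2.18 and 2.69 CPM in Shp2f/f MDSC (75 and 93 counts) and at 4.63 and 6.28 CPM in Shp2f/fLysMcre MDSC. In TAM it was at 11.4, 11.1 and 15.0 CPM in Shp2f/f and at 9.001, 9.56 and 8.61 CPM in Shp2f/fLysMcre. Shp2f/f TAM thus held the most Il1r1 and Shp2f/f MDSC the least, with no overlap between neighbors in that order. The fall in TAM was -0.46 (SE 0.111, edgeR adjusted p = 0.00495). Without Shp2f/f replicate 3, the highest for Il1r1 and for islet transcripts, it was -0.30 (edgeR adjusted p = 0.00964). In a fit of all 10 libraries it was -0.43 and did not pass (edgeR adjusted p = 0.0652). In MDSC the difference of 1.17 (SE 0.255) did not pass (edgeR adjusted p = 0.0768), while the DESeq2 test gave an adjusted p of 0.0178. The highest MDSC value belonged to Shp2f/fLysMcre replicate 2, the library with the fibroblast or tumor cell markers. Without it the MDSC difference was 0.92, and without replicate 1 it was 1.34.

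The decoy receptor gene Il1r2 (ENSMUSG00000026073, chromosome 1, 40074079 to 40125231, plus strand, 11 merged exons) lies upstream of Il1r1. It was at 102 and 124 CPM in Shp2f/f MDSC and at 198 and 198 CPM in Shp2f/fLysMcre MDSC. The TAM values were 198, 198 and 191 CPM in Shp2f/f and 187, 188 and 190.1 CPM in Shp2f/fLysMcre. Shp2f/f MDSC stood apart below the other 3 groups, whose levels were nearly equal. The rise in MDSC was 1.75-fold (log2 fold change 0.81, SE 0.136, edgeR adjusted p = 0.0393). It kept its direction without each library, at 0.67 to 0.95. Each of those fits leaves 1 library in 1 genotype, so no p-value is given. Without a filter on low counts Il1r2 was not called (edgeR adjusted p = 0.0955). In TAM the difference was -0.05 (SE 0.0359, edgeR adjusted p = 0.250), and -0.15 with scaling by total counts (edgeR adjusted p = 0.00428).

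Neutrophil markers moved with this gene. In MDSC, 6 of the 9 were called higher, and their sum was 8818 to 9025 CPM in Shp2f/f and 24453 to 29825 CPM in Shp2f/fLysMcre. The monocyte markers summed to 7128 to 10162 CPM in Shp2f/fLysMcre MDSC, and 0 of 5 were called. Of 8 macrophage markers 1 was lower, with sums of 2624 to 2707 and 1866 to 2122 CPM. The erythroid markers summed to 209 to 239 CPM in Shp2f/f and 401 to 548 CPM in Shp2f/fLysMcre, and 5 of 7 were called higher. The part of these differences in the MDSC values was not tested. The count of called genes in MDSC rested on single libraries. Leaving out any 1 leaves 1 library in a genotype, so the spread then comes from the other genotype alone. The counts that follow show how unstable the calls are and do not test the 10 genes. Without Shp2f/fLysMcre replicate 2, the library with the fibroblast or tumor cell markers, 5 of the 10 were called (Il1r2, Il1r1, Il1rn and Il18bp higher and Il18 lower), while 2729 genes were called in all against 633 with every library. Without Shp2f/fLysMcre replicate 1, 4 were called (Il1r2, Il1r1 and Il18bp higher and Il1rap lower), while 4406 genes were called in all. Without either Shp2f/f replicate, 0 of the 10 and 1 gene in all were called, with 1 and 3 at an unadjusted edgeR p under 0.05.

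The accessory receptor gene Il1rap (ENSMUSG00000022514, chromosome 16, 26581704 to 26730117, plus strand, 14 merged exons) had overlapping ranges between neighboring groups. It was at 58.6 and 48.9 CPM in Shp2f/f MDSC, 55.1 and 25.5 CPM in Shp2f/fLysMcre MDSC, 45.8, 49.1 and 45.1 CPM in Shp2f/f TAM, and 43.9, 43.8 and 48.2 CPM in Shp2f/fLysMcre TAM. The low value belonged to the MDSC library with the fibroblast or tumor cell markers. Neither genotype difference passed (-0.42, SE 0.352, edgeR adjusted p = 0.617 in MDSC; -0.04, SE 0.0530, edgeR adjusted p = 0.517 in TAM). Without that library the MDSC difference was 0.03.

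Il18 (ENSMUSG00000039217, chromosome 9, 50554827 to 50581840, plus strand, 8 merged exons) was at similar levels in both cell types and differed with genotype in opposite senses. It was at 53.1 and 60.1 CPM in Shp2f/f MDSC and at 38.3 and 43.4 CPM in Shp2f/fLysMcre MDSC. The TAM values were 42.1, 45.6 and 43.9 CPM in Shp2f/f and 60.1, 56.3 and 57.9 CPM in Shp2f/fLysMcre. The 2 lower groups overlapped each other, as did the 2 higher ones. The rise in TAM was 1.32-fold (log2 fold change 0.41, SE 0.0466, edgeR adjusted p = 2.87e-05). The MDSC difference of -0.47 (SE 0.126) did not pass (edgeR adjusted p = 0.1204), and without Shp2f/fLysMcre replicate 2 it was -0.57.

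Il18bp (ENSMUSG00000070427, chromosome 7, 102014885 to 102018690, minus strand, 4 merged exons), the inhibitor of IL-18, had higher values in Shp2f/fLysMcre in both cell types. It was at 5.44 and 5.81 CPM in Shp2f/f MDSC and at 9.68 and 10.1 CPM in Shp2f/fLysMcre MDSC. TAM of Shp2f/f held 37.8, 38.5 and 36.1 CPM, and TAM of Shp2f/fLysMcre held 60.3, 53.7 and 53.8 CPM. The 4 groups did not overlap. The rise in TAM was 1.49-fold (log2 fold change 0.58, SE 0.0545, edgeR adjusted p = 6.48e-06). In MDSC the log2 difference of 0.81 (SE 0.156) did not pass (edgeR adjusted p = 0.0549), while DESeq2 gave an adjusted p of 0.0151. TAM of Shp2f/f held 6.58 times the MDSC level (log2 difference 2.72, SE 0.0729, edgeR adjusted p = 8.15e-10).

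Nlrp3 (ENSMUSG00000032691, chromosome 11, 59541568 to 59566956, plus strand, 11 merged exons) was at 118 and 118 CPM in Shp2f/f MDSC and at 111 and 95.9 CPM in Shp2f/fLysMcre MDSC. In TAM it was at 650.2, 632 and 633 CPM in Shp2f/f and at 803, 818 and 833 CPM in Shp2f/fLysMcre. The sensor gene was thus 5.35-fold higher in TAM than in MDSC of Shp2f/f (log2 difference 2.42, SE 0.0487, edgeR adjusted p = 1.26e-10). It was higher again in Shp2f/fLysMcre TAM, by 1.28-fold (log2 fold change 0.36, SE 0.0343, edgeR adjusted p = 7.42e-06). The MDSC difference was -0.19 (SE 0.122, edgeR adjusted p = 0.499).

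Casp1 (ENSMUSG00000025888, chromosome 9, 5298517 to 5307265, plus strand, 10 merged exons) showed the reverse order of cell types. It was at 108 and 120 CPM in Shp2f/f MDSC, 104 and 95.9 CPM in Shp2f/fLysMcre MDSC, 68.4, 67.6 and 64.8 CPM in Shp2f/f TAM, and 76.1, 70.6 and 71.3 CPM in Shp2f/fLysMcre TAM. Both TAM groups lay below both MDSC groups. In Shp2f/f the level in TAM was 0.582 times that in MDSC (log2 difference -0.78, SE 0.0544, edgeR adjusted p = 7.57e-07). The rise with genotype in TAM was small, 1.09-fold (log2 fold change 0.12, SE 0.0434, edgeR adjusted p = 0.0417). It was 0.02 with scaling by total counts (edgeR adjusted p = 0.716) and was not called when any of 5 of the 6 TAM libraries was left out. The MDSC difference was -0.18 (SE 0.118, edgeR adjusted p = 0.490).

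The genotype differences were then set against each other across cell types by an interaction test over all 10 libraries, which treats MDSC and TAM as independent although they came from the same mice. Of the 10 genes, 5 differed, beside 24.9% of 16581 genes tested. Nlrp3, Il18 and Casp1 were 3 genes with a higher effect in TAM, beside 12.2% of all genes, and Il1r1 and Il1r2 were 2 with a lower effect, beside 12.7%. The differences, TAM minus MDSC, were 0.90 for Il18 (SE 0.114, edgeR adjusted p = 0.000424) and 0.57 for Nlrp3 (SE 0.0909, edgeR adjusted p = 0.00161). They were -1.60 for Il1r1 (SE 0.258, edgeR adjusted p = 0.00177) and -0.83 for Il1r2 (SE 0.108, edgeR adjusted p = 0.000496). Without MDSC Shp2f/fLysMcre replicate 2, the difference for Il1r1 was -1.35. The difference for Casp1 was 0.33 (SE 0.0943, edgeR adjusted p = 0.0297). The test assumes 1 spread for both cell types, although MDSC libraries varied more than TAM libraries, and on simulated data it made more false calls than the threshold allows. With limma voom and weights per cell type, Il18, Nlrp3, Il1r1 and Il1r2 still passed (adjusted p of 0.000751, 0.00233, 0.0310 and 0.000401) and Casp1 did not (adjusted p = 0.0767), nor did Casp1 with scaling by total counts in edgeR (0.16, adjusted p = 0.186) or without any of 7 of the 10 libraries. For the other 5 genes no difference was detected. Il1b, for example, rose by 0.26 in TAM and the effects differed by 0.11 (SE 0.0878, edgeR adjusted p = 0.416).

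Between the cell types of Shp2f/f mice, all 10 genes differed, beside 78.8% of 15659 genes tested. TAM had more Il1a, Il1rn, Il18bp, Nlrp3, Il1r1, Il1b and Il1r2, which made 7 beside 40.0% of all genes called higher. MDSC had more Casp1, Il18 and Il1rap, which made 3 beside 38.8% called lower in TAM. The groups did not overlap for 9 of the 10, beside 86.2% of all genes. Il1r1 was 5.07-fold higher in TAM (log2 difference 2.34, SE 0.170, edgeR adjusted p = 1.005e-06) and Il1r2 1.70-fold (0.77, SE 0.0740, edgeR adjusted p = 7.87e-06). Il18 was lower (-0.38, SE 0.0636, edgeR adjusted p = 0.000369). Il1rap was lower by a small margin (-0.22, SE 0.0791, edgeR adjusted p = 0.0280). It was not called without Shp2f/f TAM replicate 1 (edgeR adjusted p = 0.0794) or 3 (0.0685). With 1 MDSC library left, Il1rap was at -0.08 without Shp2f/f MDSC replicate 1 and at -0.35 without replicate 2. Fibroblast or tumor cell markers summed to 6.75 to 24.7 CPM in Shp2f/f MDSC and 256 to 261 CPM in Shp2f/f TAM. Their part in the differences of the 10 genes was not tested. Cell type, organ and method of isolation cannot be told apart in this comparison. It shares its control libraries with the genotype comparisons, and on simulated data its fit also made more false calls than the threshold allows.

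**Figure D3:**
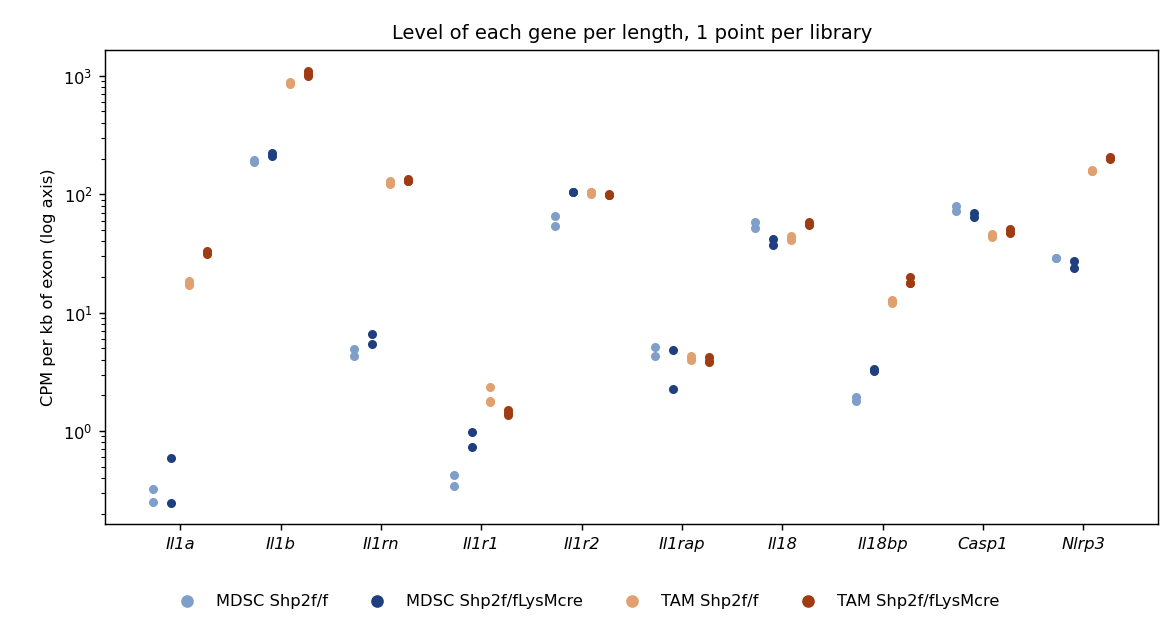
Level of each of the 10 genes in CPM per kilobase of exon on a log axis, with 1 point per library, by cell type and genotype. Il1b is the highest of the 10 in every group, and Il1a is the lowest in MDSC but not in TAM, where Il1r1 is.

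Per length, Il1b was the most abundant of the 10 genes in each group. In Shp2f/f MDSC, Casp1 followed at 75.9 ± 5.76, Il1r2 at 59.4 ± 8.15 and Il18 at 54.9 ± 4.75 CPM per kb (SD, n = 2 each). In Shp2f/f TAM, Nlrp3 followed at 157 ± 2.52, Il1rn at 125 ± 2.68 and Il1r2 at 102 ± 1.98 CPM per kb (SD, n = 3 each). The signaling receptor was scarce beside its decoy. Il1r1 was at 0.383 ± 0.0563 CPM per kb in Shp2f/f MDSC (SD, n = 2) and at 1.97 ± 0.341 CPM per kb in Shp2f/f TAM (SD, n = 3).

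Ratios of an antagonist to its agonist or receptor within a library do not depend on how libraries are scaled. They are given as a description, since 3 against 3 libraries are too few for an exact test to pass. Per length, log2 of Il1rn to Il1b was -5.29 and -5.45 in Shp2f/f MDSC and -5.10 and -5.26 in Shp2f/fLysMcre MDSC. It was -2.81, -2.78 and -2.79 in Shp2f/f TAM and -3.07, -2.96 and -2.93 in Shp2f/fLysMcre TAM. TAM thus held more antagonist transcript per agonist transcript than MDSC, with mean ratios of 0.144 and 0.0242 in Shp2f/f. In TAM the ratio was lower in all 3 Shp2f/fLysMcre libraries, by a mean log2 difference of -0.19. In MDSC it was higher in both Shp2f/fLysMcre libraries by a mean of 0.19, with the nearest values of the genotypes at -5.26 and -5.29.

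The log2 ratio of the decoy Il1r2 to Il1r1 was 7.29 and 7.27 in Shp2f/f MDSC and 7.16 and 6.72 in Shp2f/fLysMcre MDSC. It was 5.86, 5.89 and 5.41 in Shp2f/f TAM and 6.12, 6.03 and 6.20 in Shp2f/fLysMcre TAM. The decoy exceeded the receptor by mean ratios of 155 and 52.6 in MDSC and TAM of Shp2f/f. The ratio moved apart by genotype in each cell type without overlap, down by a log2 difference of -0.34 in MDSC and up by 0.40 in TAM. The lowest TAM value was that of Shp2f/f replicate 3, without which the TAM difference was 0.25. In MDSC the difference was -0.12 without Shp2f/fLysMcre replicate 2 and -0.56 without replicate 1.

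**Figure D4:**
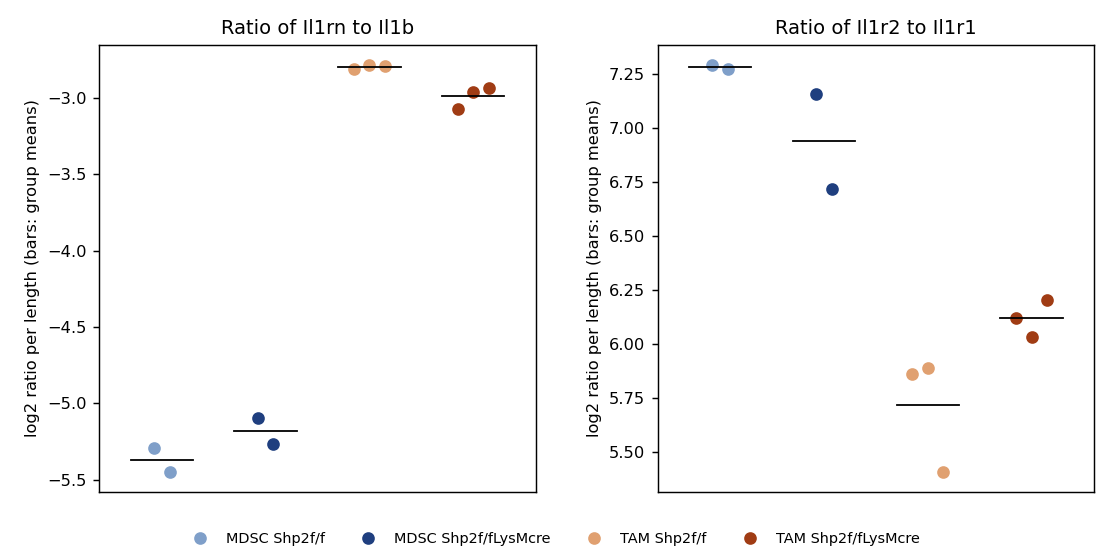
Log2 ratio per length of Il1rn to Il1b (left) and of Il1r2 to Il1r1 (right) in each library, with bars at the group means. TAM points lie above MDSC points on the left and below them on the right, and the TAM genotypes do not overlap in either panel.

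Other genes of these pathways were taken from a list of 42, of which 36 were tested in TAM and 35 in MDSC. Il36a, Il36b, Il36rn, Il1f10, Il1rapl1 and Il1rapl2 had group means of at most 0.111 CPM and were not tested, and Il33 was not tested in MDSC. In TAM, 25 of the 36 were called, beside the 50.2% of all genes called. Of these, 18 were higher and 7 lower, beside 23.9% and 26.3% of all genes. The median log2 fold change of the 36 was 0.16, beside -0.01 over all genes. With scaling by total counts 24 were called, 14 higher and 10 lower, beside 7566 genes in all, 2341 higher and 5225 lower. In MDSC 3 of the 35 were called, beside 4.28% of all genes, with a median of -0.08.

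Among the receptors, Il18r1, the ligand-binding chain for IL-18, and Il1rl1, the receptor for IL-33, moved apart between the cell types. Il18r1 rose in MDSC from 3.11 ± 0.260 to 8.14 ± 1.25 CPM (SD, n = 2 each, log2 fold change 1.39, SE 0.206, edgeR adjusted p = 0.0303). Mast cell or basophil markers moved with it in MDSC, with sums of 10.9 to 11.99 CPM in Shp2f/f and 21.9 to 22.6 CPM in Shp2f/fLysMcre and 1 of 4 tested called higher (Mcpt8), a part that was not tested. In TAM it fell from 1.0498 ± 0.186 to 0.608 ± 0.0845 CPM (SD, n = 3 each, log2 fold change -0.79, SE 0.254, edgeR adjusted p = 0.0236). T and NK cells also express Il18r1, and the T and NK cell markers fell with it in TAM, a part that was not tested. Il1rl1 fell in TAM from 92.7 ± 5.88 to 66.7 ± 3.77 CPM (SD, n = 3 each, log2 fold change -0.48, edgeR adjusted p = 3.04e-05). In MDSC Il1rl1 differed by 0.75 (edgeR adjusted p = 0.114). Il1rl2, the receptor for IL-36, rose in MDSC (log2 fold change 1.43, SE 0.252, edgeR adjusted p = 0.0436) and differed in TAM by -0.11 (edgeR adjusted p = 0.309). Sigirr, a negative regulator of the receptor family, fell in TAM (-0.40, edgeR adjusted p = 0.0232).

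Of the 2 tested ligands, Il36g rose in TAM from 3.88 ± 0.429 to 6.93 ± 0.339 CPM (SD, n = 3 each, log2 fold change 0.83, edgeR adjusted p = 6.43e-05). Il33, an alarmin, fell there from 33.4 ± 0.504 to 27.5 ± 1.14 CPM (SD, n = 3 each, log2 fold change -0.28, edgeR adjusted p = 0.000475). Of 11 signaling genes 6 rose and 2 fell in TAM, beside 23.9% of all genes called higher and 26.3% called lower. Irak3, which encodes an inhibitor of this signaling, had the largest rise of the 11, from 22.4 ± 0.201 to 39.0 ± 0.696 CPM (SD, n = 3 each, log2 fold change 0.80, SE 0.0434, edgeR adjusted p = 1.20e-07). Myd88, the adaptor of the IL-1 receptors, rose in TAM by 0.35 (edgeR adjusted p = 3.97e-05) and differed by -0.37 in MDSC (edgeR adjusted p = 0.1596). None of the signaling genes was called in MDSC. Of the 35 genes of the whole list tested there, 7 had an unadjusted p under 0.05 in edgeR, beside 2859 of all 14806 genes tested. DESeq2 called 5 of the list, beside 1256 genes in all.

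Of 12 inflammasome sensor, adaptor and regulator genes, 8 rose and 0 fell in TAM, beside 23.9% and 26.3% of all genes. Nlrc4, a sensor of bacterial proteins, rose by 0.40 there (SE 0.0556, edgeR adjusted p = 0.000113) and differed by -0.26 in MDSC (edgeR adjusted p = 0.437). Pycard and Txnip were chosen after their values were seen. Pycard, the adaptor that links sensors to caspase-1, rose in TAM by 0.29 (edgeR adjusted p = 0.00204), and Txnip, which binds NLRP3, by 0.41 (edgeR adjusted p = 3.77e-06). Of 6 genes of pyroptosis and release 3 rose and 1 fell in TAM, beside the same shares. P2rx7, the ATP-gated channel that triggers NLRP3, rose from 68.2 ± 3.02 to 103.7 ± 3.09 CPM in TAM (SD, n = 3 each, log2 fold change 0.60, SE 0.0430, edgeR adjusted p = 7.85e-07). In MDSC P2rx7 fell from 60.7 ± 2.73 to 36.6 ± 3.09 CPM (SD, n = 2 each, log2 fold change -0.73, SE 0.115, edgeR adjusted p = 0.0343). Ninj1, which ruptures the membrane of dying cells, rose in TAM by 0.60 (edgeR adjusted p = 6.61e-07). The exception was Gsdmd, named after its value was seen, which encodes the pore protein and fell by 0.13 on the log2 scale (edgeR adjusted p = 0.0298).

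**Figure D5:**
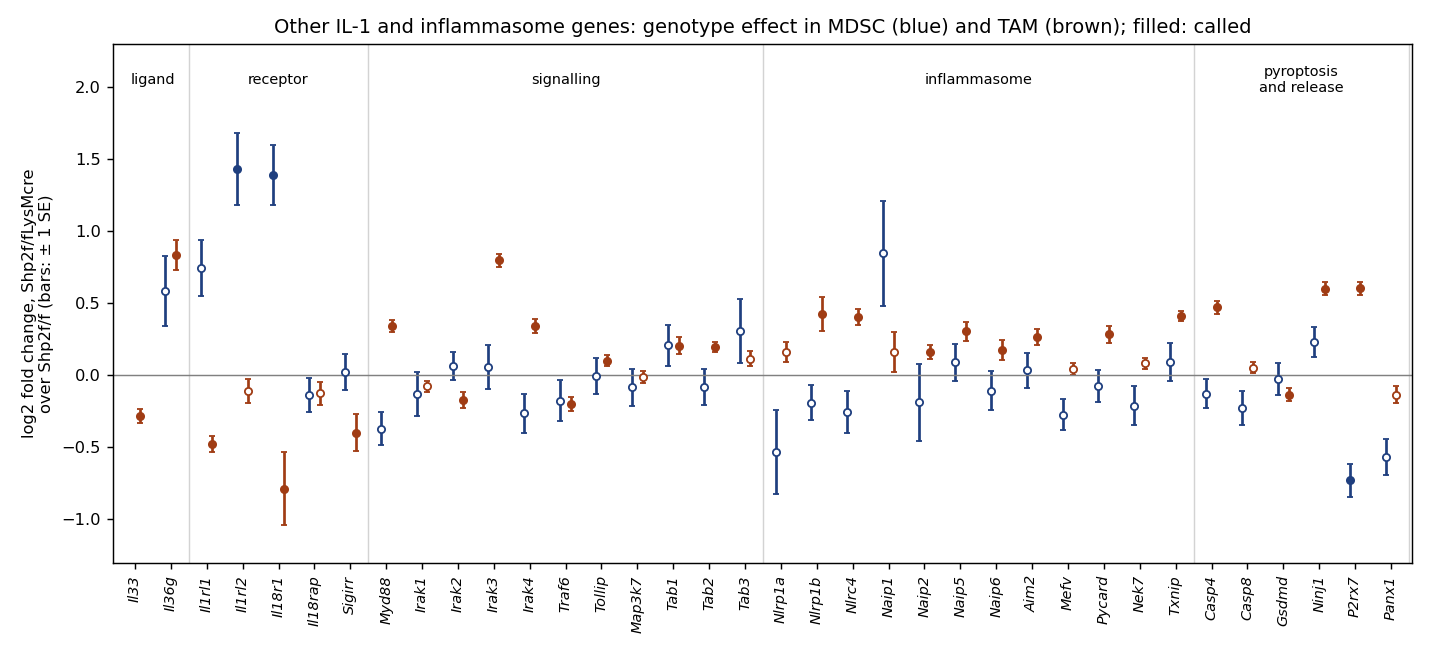
Log2 fold change of Shp2f/fLysMcre over Shp2f/f with its standard error for the tested genes of the pathway list, ordered by role, in MDSC (blue) and TAM (brown). Filled points passed the test over all genes: 25 in TAM and 3 in MDSC. P2rx7 and Il18r1 have filled points on opposite sides of 0.

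By the interaction test, 17 of the 36 differed between cell types, beside 24.9% of all genes. Of these, 14 had a higher effect in TAM and 3 a lower one, beside 12.2% and 12.7% of all genes. With scaling by total counts 11 differed, 6 higher and 5 lower, beside 4357 genes in all, 1235 higher and 3122 lower. Between the cell types of Shp2f/f mice 32 of the 36 differed, beside 78.8% of all genes. Of these, 13 were higher in TAM and 19 lower, beside 40.0% and 38.8% of all genes. The ligand gene Il33 had the largest rise, at 0.261 ± 0.00117 CPM in MDSC (SD, n = 2) and 33.4 ± 0.504 CPM in TAM (SD, n = 3). Il1rl1, Il1rl2 and Naip1 followed with log2 differences of 4.08, 2.43 and 2.35. The 7 fibroblast or tumor cell markers also rose, with sums of 6.75 to 24.7 CPM in Shp2f/f MDSC and 256 to 261 CPM in Shp2f/f TAM. Their part in the rise of Il33 was not tested. The largest falls were those of Il36g (-2.59), Il18rap (-2.01), Sigirr (-1.92) and Panx1 (-1.81). Of the 12 inflammasome genes 9 were lower in TAM and 1 was higher, beside 38.8% of all genes called lower and 40.0% called higher.

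The genes most alike to 4 of the genes were ranked by Pearson's r of log2 CPM, as a description over libraries that share cell type and genotype. Over all 10 libraries and 8839 genes, Nlrp3 was closest to Thbs1 (r = 0.9997), Adam8 and Rbpj, Il1a to the complement genes C1qa (r = 0.9995) and C1qc and to Itga9, and Il1b to Lgals3bp (r = 0.9991), Ccl8 and Sbf2. Il18, which did not follow cell type, had lower values, with Abcd4 (r = 0.946), Cd48 and Lrrc25 at the top. Over the 6 TAM libraries and 8646 genes, Il1a was closest to Gpr162, Tlr7 and Dusp6, Il1b to Sh3bp5, Rell1 and Arpc3, Il18 to Rnf19a, Tnfrsf23 and Asah1, and Nlrp3 to Epb41l1, Tbc1d8 and Pik3r6. These r values lay between 0.9975 (Asah1) and 0.9998 (Sh3bp5).

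Exons of 4 of the genes overlap genes on the other strand, and the strand setting of the counting was not given in the sources used here. Il1a shares 222 bases with Gm14023, which had 12 to 28 counts in TAM and 47 to 62 in MDSC, as many as or more than Il1a itself there, and which was also higher in Shp2f/fLysMcre TAM (log2 fold change 0.80, edgeR adjusted p = 0.0436). Il1b shares 25 bases with Il1bos (56 to 140 counts), Il1rap 552 with Gm20319 (0 to 2 counts) and Il18bp 80 with Numa1 (4032 to 6098 counts).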

How the data were processed

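Poly(A) RNA (400 ng per library, TruSeq stranded mRNA) of 10 libraries was sequenced as paired 42-nt reads. The authors trimmed reads with cutadapt 2.5 after FastQC 0.11.5, aligned them to GRCm38 with STAR 2.7.3a and counted them per Ensembl release 98 gene with featureCounts (Subread 1.6.2). The strand setting and the treatment of reads with several matches are not given in the sources used here. The deposited raw counts were tested. The deposited normalized signal, raw counts divided by 1 constant per library (DESeq2 1.24.0), was only checked against them.

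Groups came from the sample labels. Counts were fitted with edgeR 4.0.16 in R 4.3.3 (TMM scaling, filterByExpr with a minimum count of 10, quasi-likelihood F test, Benjamini-Hochberg adjustment over all genes tested, threshold 0.05). Genotype was fitted within MDSC (2 against 2) and TAM (3 against 3), and the difference of effects and the cell type comparison used an interaction model and the Shp2f/f libraries. SE is the absolute log2 fold change over the square root of F. CPM used TMM factors computed within each cell type, which were then multiplied by the mean factor of that cell type in TMM over all 10 libraries. Per-length levels used merged exon length. Biological coefficients of variation were 0.189 in MDSC and 0.0595 in TAM, so MDSC effects were less precisely measured. Replicates differed by more than sampling noise (chi-square per degree of freedom 4.46 to 58.1). Deviations of samples sharing a number correlated at -0.19, 0.14 and 0.01 in TAM and at 0.32 in MDSC (-0.32 for unlike numbers), where only 2 pairs exist, so the numbers were not taken to pair them.

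The 10 genes, the pathway list and the marker lists were chosen with earlier results of these data known. Named pathway genes were the 4 largest rises and falls among called genes of each comparison, and alike genes were the 3 with the highest r among genes of mean CPM of at least 10 (log2 CPM, prior count 2). Alternatives were DESeq2 1.42.0, its size factors, total-count scaling, other count filters, a replicate block, 1 fit of all libraries, limma 3.58.1 voom and leaving out each library. On simulated data the genotype fits kept false calls under the threshold, while the interaction and cell type fits, which share 1 spread, made more false calls than it allows. The simulation gave all genes of a cell type the same spread and held no library that stood apart. It was drawn 1 time per comparison, so it does not show the rate of false calls in the real libraries.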

Additional observations from a re-analysis of the deposited data

Results flagged for a closer look

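The genotype effects of 5 of the 10 genes and of 17 pathway genes differed between TAM and MDSC by the edgeR interaction test (effect in TAM minus effect in MDSC, log2). The 5 and, of the pathway genes, the 4 largest differences upward and all 3 downward are given here. Among the 10 genes these were Il18 at 0.90 (edgeR adjusted p = 0.000424), Nlrp3 at 0.57 (0.00161) and Casp1 at 0.33 (0.0297) on the higher side, and Il1r1 at -1.60 (0.00177) and Il1r2 at -0.83 (0.000496) on the lower side. In the pathway list P2rx7 was at 1.36 (edgeR adjusted p = 1.49e-05), Irak3 at 0.77 (0.00214), Myd88 at 0.74 (0.000215) and Nlrc4 at 0.69 (0.00432). Il18r1 was at -2.15 (edgeR adjusted p = 0.000652), Il1rl2 at -1.50 (0.000918) and Il1rl1 at -1.19 (0.000364). Both P2rx7 and Il18r1 were called within each cell type, in opposite directions. The MDSC side of each rests on 2 libraries per genotype.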

How the results depend on the processing

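The MDSC counts depended on the processing. Called genes were 633, and were 1256 with DESeq2, 130 without a filter on low counts and 2666 in 1 fit of all 10 libraries. Of the 10 genes, 1 was called, 3 with DESeq2, 0 without a filter (4 at an unadjusted edgeR p under 0.05), 2 with a minimum count of 50 and 5 in 1 fit. Of the pathway list 3 were called, 5 with DESeq2, 0 without a filter (7 at an unadjusted edgeR p under 0.05) and 10 in 1 fit. With the filter, 2859 of all 14806 genes were at an unadjusted edgeR p under 0.05. The share of all genes at that p without the filter is not given. With the replicate block the called genes, the called of the 10 and the called of the pathway list were 2674, 6 and 7, though the numbers were not shown to pair libraries. In TAM the block left 6 of the 10 called (Casp1 at an edgeR adjusted p of 0.0531). In 1 fit of all libraries 4837 genes were called in TAM against 7257. Where an MDSC library is left out, 1 library remains in that group, which then adds no spread to the MDSC and interaction counts. Leaving out 1 library gave 1 to 4406 genes, 0 to 5 of the 10 and 0 to 13 of the pathway list in MDSC. The interaction gave 2446 to 7023 genes, 4 to 6 of the 10 and 11 to 24 of the pathway list, the lowest without MDSC Shp2f/f replicate 2 for genes. TAM gave 6176 to 7317 genes and 6 to 7 of the 10. Scaling by total counts moved the median of all genes from -0.01 to -0.11 in TAM and to -0.18 in the interaction. It changed the share called higher from 47.6% (3452 higher, 3805 lower) to 30.9% (2341 and 5225) in TAM and from 49.1% to 28.3% in the interaction, where 11 of the pathway list passed against 17. It turned Il1rn in TAM to -0.030 and Il1b in the interaction to -0.063. Without MDSC Shp2f/fLysMcre replicate 2, Il1a in MDSC was -0.21 (range -0.21 to 1.01), Il1rap in MDSC 0.033 (range -1.10 to 0.033) and Il1rap in the interaction -0.041 (range -0.041 to 1.0493). Without replicate 1, Il1a in the interaction was -0.15 (range -0.15 to 1.10). None of these 6 turned values had been called, and the causes were not tested. Il1a in MDSC rested on 17 to 47 counts per library.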
